A study of Mus musculus with 15 samples.

Results

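Ly6a, Thy1, Pdgfra, Pdgfrb, Eng, Cd44, Nt5e, S100a4, Prrx1 and Twist1 are 10 genes by which fibroblasts and mesenchymal progenitor cells are commonly recognised. They were taken by symbol from a count table of 46603 Ensembl gene IDs. All 10 were found, and 9 passed the filter on low counts and were tested among 15296 genes. The remaining one, Thy1, was close to 0 in every library. RNA was sequenced from mouse embryonic fibroblasts (MEFs) of strain BALB/c, labelled as coming from embryos of 10.5 days. The cells were wild type for Actb, the gene of cytoplasmic beta-actin (WT), heterozygous (HET) or knockout (KO). All were grown to confluence on Matrigel and moved at day 0 to OsteoMax-XF osteogenic medium with dexamethasone, a glucocorticoid, and forskolin, which raises cyclic AMP. Libraries of WT and KO cells were taken at day 4 and day 14 and of HET cells at day 14, with 3 libraries in each of the 5 groups. The labels do not say how many embryos or cell lines stand behind a genotype, so Actb copy number and the origin of the cells cannot be told apart. They name no separate cultures either, so p-values measure the spread between these libraries, which may be technical.

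The libraries held 19878449 to 47486736 counts. Levels are given as CPM, the usual unit of counts scaled to the size of the library. Actb lay between 43.0 and 138.6 CPM in the 6 KO libraries and between 1164 and 3067 CPM in the 6 WT libraries, while the HET libraries held 1437 to 1642 CPM. HET replicate 2 stood apart from the other HET libraries: ribosomal protein genes took 4.19% of its counts, against 2.92% and 2.96% in replicates 1 and 3. In the WT day 14 libraries this share also varied, from 3.14% to 3.93%. Mitochondrial genes took 0.415% to 0.542% of counts in WT, 0.729% to 0.851% in HET and 0.836% to 1.12% in KO libraries. In bulk RNA such as this, fewer cells of a type and less RNA per cell cannot be told apart.

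The genes fall into 4 roles. Pdgfra and Pdgfrb encode the receptor tyrosine kinases for platelet-derived growth factors (PDGF), which drive growth and migration of mesenchymal cells, and Eng encodes endoglin, a co-receptor for TGF-beta and bone morphogenetic protein (BMP) ligands. Ly6a (Sca-1), Thy1 (CD90), Cd44 and Nt5e (CD73) encode surface proteins used to sort stromal progenitors: the first pair are lipid-anchored antigens, CD44 binds the matrix sugar hyaluronan, and CD73 makes adenosine from AMP outside the cell. S100a4 encodes a small calcium-binding protein often used as a fibroblast marker. Prrx1 and Twist1 encode transcription factors of limb bud, craniofacial and other embryonic mesenchyme, and Twist1 is known to restrain osteoblast differentiation.

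Promoter windows are shown for the tested member with the greatest fall in KO cells at day 14, Eng, and for S100a4, for which KO cells exceeded WT more at day 4 than at day 14. The sequences are RefSeq windows on GRCm38.p6 running from 250 bases before to 50 bases after the annotated start, on the plus strand for both genes. Eng lies at chr2:32646345-32646644 and S100a4 at chr3:90603520-90603819. Capitals mark an E-box (CANNTG, the motif class bound by Twist1 and other basic helix-loop-helix factors) in Eng and a TATAAA box in S100a4.
Eng: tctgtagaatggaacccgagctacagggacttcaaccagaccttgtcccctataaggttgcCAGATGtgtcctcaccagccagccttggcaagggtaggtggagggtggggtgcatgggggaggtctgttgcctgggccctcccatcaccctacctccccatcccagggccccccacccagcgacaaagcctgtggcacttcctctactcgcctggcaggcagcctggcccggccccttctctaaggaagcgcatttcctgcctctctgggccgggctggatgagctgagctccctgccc
S100a4: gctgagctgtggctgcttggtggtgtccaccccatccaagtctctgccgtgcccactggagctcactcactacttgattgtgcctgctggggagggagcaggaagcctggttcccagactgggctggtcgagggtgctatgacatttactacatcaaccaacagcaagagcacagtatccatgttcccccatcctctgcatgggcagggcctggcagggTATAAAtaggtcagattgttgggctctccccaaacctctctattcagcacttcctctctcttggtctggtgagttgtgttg
Windows were used for 7 of the 10 genes. None was used for Ly6a, Thy1 or Pdgfrb, so the promoters of these genes were not searched. An E-box was present in those of Pdgfra, Eng and Nt5e and absent from the other windows, while 72.3% of 32544 mouse windows held one. TATAAA, a motif chosen after the windows were read, occurred in those of S100a4 and Twist1 and in 13.6% of all windows. Searches on both strands for the interferon-stimulated response element, the gamma-interferon element TTCNNNGAA, the cyclic AMP element TGACGTCA, the AP-1 element TGANTCA and the glucocorticoid response element had no match in any of the 7 windows. These motifs occurred in 3.45%, 8.33%, 1.8%, 7.79% and 0.473% of all windows in that order.

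KO cells at day 4 differed from WT cells in 8 of the 9 tested genes: Ly6a, Pdgfrb and S100a4 were higher, and Pdgfra, Eng, Cd44, Prrx1 and Twist1 were lower. In the same comparison 69.5% of all genes passed the threshold (edgeR adjusted p under 0.05), 35.7% higher and 33.8% lower. At day 14 the KO cells were higher than WT in Ly6a, Pdgfra, Nt5e and S100a4 and lower in Pdgfrb, Eng and Prrx1, which is 7 of 9 beside 63.1% of all genes (30.9% higher, 32.2% lower). The shares of members called are thus not far from those of all genes. The sizes of the changes were larger in both of these comparisons: the median absolute log2 fold change was 1.79 for the 9 genes and 0.58 for all genes at day 4, and 1.3 and 0.46 at day 14. The members were chosen with earlier results of these data known, so their larger sizes cannot be told apart from that choice. The directions were mixed, with median log2 fold changes of -0.43 at day 4 and 0.16 at day 14, beside 0.03 and -0.02 over all genes.

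**Figure D1:**
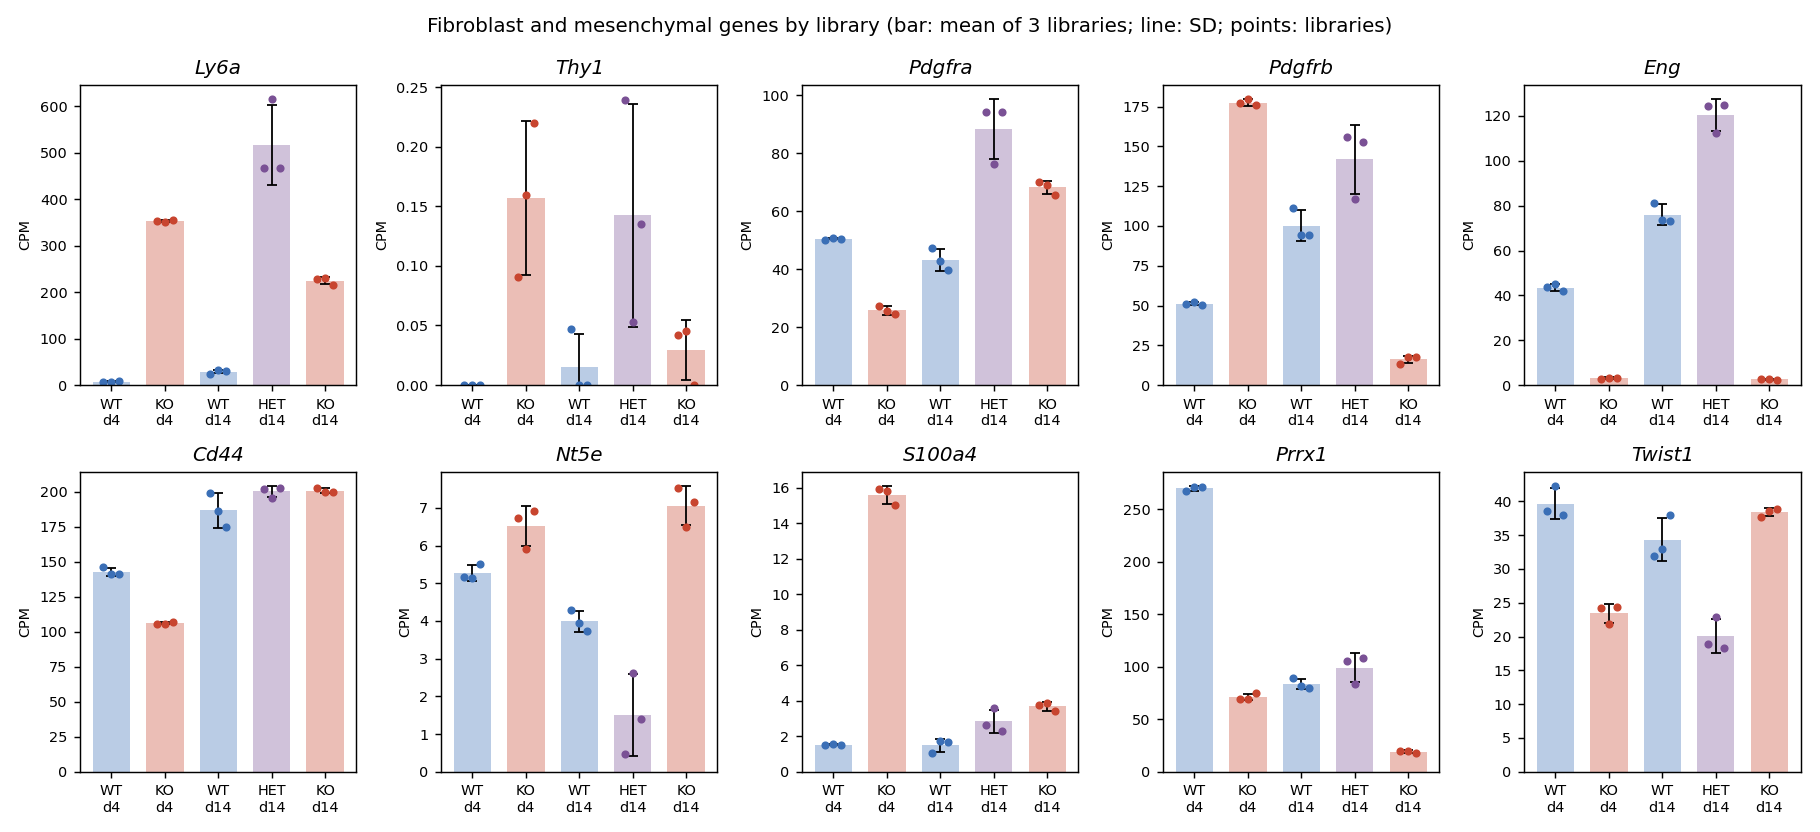
Level in CPM of the members in each of the 5 groups, 1 panel per gene with its own axis from 0. Bars are means of 3 libraries, lines the SD and points the libraries. Ly6a is lowest in WT cells at day 4 (6.39 to 8.47 CPM) and Eng is lowest in both KO groups (2.37 to 3.30 CPM).

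Pdgfra and Pdgfrb changed places between the days in KO cells. Pdgfrb stood at 51.3, 52.0 and 50.4 CPM in WT cells and 177.3, 179.7 and 175.8 CPM in KO cells at day 4. At day 14 it stood at 111.6, 94.5 and 94.6 CPM in WT, 155.9, 117.0 and 152.8 CPM in HET and 13.4, 17.4 and 17.4 CPM in KO cells. KO was the highest group of all 5 at day 4 and the lowest at day 14, and no neighbouring groups in that order overlapped. The log2 fold change of KO over WT was 1.79 ± 0.10 (SE; edgeR adjusted p = 4.03e-10) at day 4 and -2.64 ± 0.11 (edgeR adjusted p = 2.68e-11) at day 14. Between the days Pdgfrb fell 11.05-fold in KO cells (edgeR adjusted p = 9.28e-13) and rose by 0.97 ± 0.11 on the log2 scale in WT cells (edgeR adjusted p = 5.39e-07).

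Pdgfra (chr5:75152292-75198215) moved the other way. It held 50.2, 50.7 and 50.5 CPM in WT and 27.4, 25.5 and 24.4 CPM in KO cells at day 4, and 47.3, 42.7 and 39.9 CPM in WT, 94.2, 76.3 and 94.3 CPM in HET and 69.9, 69.1 and 65.7 CPM in KO cells at day 14. KO cells were thus below WT at day 4 and above at day 14, with no overlap on either day. The log2 fold change was -0.97 ± 0.08 (edgeR adjusted p = 3.41e-08) at day 4 and 0.66 ± 0.08 (edgeR adjusted p = 4.83e-06) at day 14. The change between days in WT cells, -0.22 ± 0.08 (edgeR adjusted p = 0.024), lost its call when WT day 4 replicate 2 or WT day 14 replicate 2 or 3 was left out (edgeR adjusted p = 0.0523, 0.0625 and 0.11). Pdgfra and Pdgfrb were the members with calls in opposite directions at the 2 days, a pattern seen in 21.7% of all genes.

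Per kilobase of exon, the ratio of Pdgfra to Pdgfrb was 0.539 ± 0.00813 (SD, n = 3) in WT and 0.0792 ± 0.00455 in KO cells at day 4. At day 14 it was 0.236 ± 0.00923 in WT, 0.341 ± 0.0137 in HET and 2.36 ± 0.434 in KO cells. Pdgfra exceeded Pdgfrb on this scale in the 3 KO day 14 libraries, at ratios of 2.86, 2.17 and 2.06, and in none of the other 12.

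Among PDGF ligands and receptor adaptors, all 11 genes were tested, and KO cells differed from WT in 11 at day 4 (7 higher, 4 lower; median log2 fold change 0.41) and in 9 at day 14 (5 higher, 4 lower; median 0.11). Pdgfa, a ligand of the alpha receptor, averaged 29.5 ± 0.391 CPM in WT and 66.8 ± 1.97 CPM in KO cells at day 4, and 73.0 ± 7.04 and 34.2 ± 0.859 CPM at day 14. Its calls therefore ran higher at day 4 and lower at day 14 (log2 fold changes 1.18 and -1.09; edgeR adjusted p = 9.99e-08 and 4.93e-07). Pdgfb, a ligand of both receptors, had log2 fold changes of 5.09 and -1.45 (edgeR adjusted p = 1.88e-09 and 1.72e-05), from 0.174 CPM in WT and 6.24 CPM in KO cells at day 4. Its WT level at day 4 rests on 19 counts, 16 of them in replicate 2, so the size of the day 4 difference is uncertain. Pdgfc, another ligand of the alpha receptor, was higher in KO cells on both days and averaged 17.6 CPM in KO, 4.86 CPM in HET and 1.87 CPM in WT cells at day 14. Genes of smooth muscle cells and pericytes, in which Pdgfrb is also used as a marker, moved too: their summed level over 10 genes was 26.9 to 29.1 CPM in WT and 2501 to 2517 CPM in KO cells at day 4, and 89.5 to 98.6 CPM in WT, 135.6 to 138.2 CPM in HET and 550.2 to 570.2 CPM in KO cells at day 14. Most of the KO sum was Acta2, at 2116 CPM at day 4, and the pericyte gene Rgs5 was at 0 in both day 4 groups. Their part in the Pdgfrb result was not tested.

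**Figure D2:**
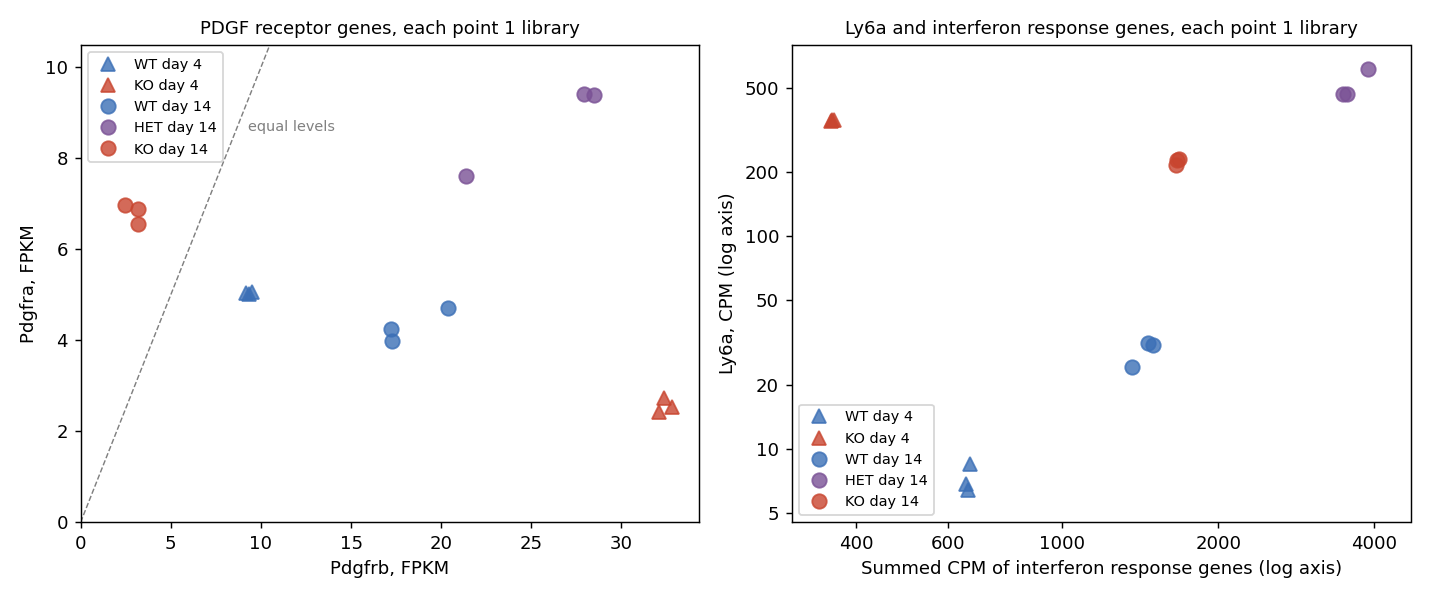
Left, level of Pdgfra against Pdgfrb in CPM per kilobase of merged exons (FPKM), 1 point per library, with a dashed line of equal levels. The 3 KO day 14 libraries lie above it and the other 12 below. Right, Ly6a in CPM against the summed CPM of 25 interferon response genes, both on log axes. KO day 4 libraries combine the lowest interferon sums with Ly6a above 350 CPM.

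Of the tested members, Eng showed the largest fall in KO cells. Eng (chr2:32646595-32682669 on GRCm38, as for all gene positions given here) stood at 43.8, 44.9 and 41.8 CPM in WT and 2.60, 3.23 and 3.30 CPM in KO cells at day 4, and at 81.3, 73.5 and 73.3 CPM in WT, 124.3, 112.5 and 124.8 CPM in HET and 2.62, 2.74 and 2.37 CPM in KO cells at day 14. Every KO library lay below every WT and HET library. The log2 fold change of KO over WT was -3.84 ± 0.10 (edgeR adjusted p = 7.28e-15) at day 4 and -4.88 ± 0.12 (edgeR adjusted p = 3.3e-15) at day 14, and KO cells were 46.8-fold below HET (edgeR adjusted p = 5.47e-16). Eng rose by 0.80 ± 0.07 between days in WT cells (edgeR adjusted p = 4.9e-08), whereas in KO cells the difference was -0.24 ± 0.13 (edgeR adjusted p = 0.101). Eng is also a marker of endothelium. Of 10 other endothelial genes, 0 to 2 reached 1 CPM in a group, Pecam1 averaged at most 0.862 CPM, Erg was at 0 in 4 of the 5 groups, and the summed level ranged from 1.54 to 15.3 CPM, below the level of Eng itself in every WT and HET group. Those that reached 1 CPM were Kdr and Cdh5. At day 4 Kdr averaged 9.24 CPM in WT and 0.294 CPM in KO cells, and Cdh5 3.28 and 0.0497 CPM. At day 14 Kdr averaged 3.14, 0.985 and 2.84 CPM in WT, HET and KO cells, and Cdh5 at most 0.151 CPM. Their part in the Eng result was not tested. Eng shares 61 exon bases with Fpgs on the other strand, which held 691 to 1883 counts, and reads from that stretch could fall to either gene or to neither.

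The partners of endoglin changed in both directions. Of 19 tested TGF-beta and BMP genes, 8 were higher and 4 lower in KO than in WT cells at day 14 (median log2 fold change 0.17), and 8 higher and 9 lower at day 4 (median -0.24). Those higher in KO at day 14 included Acvr1 (38.0 against 22.9 CPM in WT) and Smad9 (19.5 against 6.93 CPM in WT). In HET against WT cells 5 were higher, Tgfb2 and Bmpr2 among them, and 6 lower (median -0.03). Acvrl1, the type I receptor that signals with endoglin in endothelium, averaged 4.55 ± 0.59 CPM in WT, 0.252 ± 0.128 CPM in HET and 0.207 ± 0.129 CPM in KO cells at day 14 (log2 fold change of KO over WT -4.40 ± 0.56, edgeR adjusted p = 1.05e-06). HET cells were also below WT in Acvrl1 (-4.12 ± 0.55, edgeR adjusted p = 2.11e-06), although their Eng level was above that of WT. Id2, a target of BMP signalling, was lower than WT in both KO (-2.05 ± 0.25) and HET cells (-3.16 ± 0.31) at day 14, with edgeR adjusted p values of 2.31e-06 and 1.02e-07. At day 4 it was higher in KO than in WT cells (2.49 ± 0.23, edgeR adjusted p = 7.31e-08). The related BMP targets Id1 and Id3 were also higher in KO cells at day 4 (1.36 ± 0.14 and 2.24 ± 0.11, edgeR adjusted p = 2.42e-07 and 5.5e-11). At day 14 they were not called in KO against WT cells (-0.21 ± 0.13 and 0.17 ± 0.10, edgeR adjusted p = 0.175 and 0.172).

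Ly6a (chr15:74994877-74998031) had the widest range over the groups. WT cells held 6.84, 6.39 and 8.47 CPM at day 4 and 24.3, 31.3 and 30.8 CPM at day 14. KO cells held 352.4, 350.1 and 354.4 CPM at day 4 and 228.3, 230.5 and 215.8 CPM at day 14, and HET cells held 466.4, 615.5 and 467.1 CPM. The order HET, KO day 4, KO day 14, WT day 14, WT day 4 had no overlap between neighbours, and its ends were 71.4-fold apart. KO exceeded WT 49.3-fold at day 4 (log2 5.62 ± 0.12, edgeR adjusted p = 1.01e-14) and 7.81-fold at day 14 (log2 2.96 ± 0.11, edgeR adjusted p = 9.68e-12). HET cells exceeded WT 17.9-fold (log2 4.16 ± 0.11, edgeR adjusted p = 4.39e-13), and the log2 value was 4.02 without HET replicate 2.

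Of 12 relatives of Ly6a, 4 were tested: 3 were higher and 1 lower in KO than in WT cells at day 4, and 2 were higher and 2 lower at day 14. Ly6c1, encoding another lipid-anchored antigen, averaged 0.787 CPM in WT and 37.0 CPM in KO cells at day 4, and 4.91, 117.9 and 20.9 CPM in WT, HET and KO cells at day 14. That is the same order of groups as Ly6a within each day. Ly6e went the other way in KO cells, with log2 fold changes of -1.28 ± 0.10 at day 4 and -0.64 ± 0.09 at day 14 (edgeR adjusted p = 9.9e-09 and 1.75e-05). In HET cells, however, Ly6e was above WT like Ly6a, at 961.3, 126.8 and 81.15 CPM in HET, WT and KO cells at day 14. Of the 4 tested relatives, 3 were higher and 0 lower in HET than in WT cells. Genes of this family resemble each other, and reads that match several of them could be lost or misassigned, so these levels are uncertain.

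Ly6a is known to be induced by interferon, and 25 interferon response genes were set beside it. At day 4, 4 of them were higher and 20 lower in KO than in WT cells (median log2 fold change -1.8), while Ly6a was higher in KO. In KO cells from day 4 to day 14, 24 rose and 0 fell (median 5.48), while Ly6a fell by 0.65 ± 0.11 on the log2 scale (edgeR adjusted p = 7.83e-05). In HET against WT cells 22 were higher and 1 lower (median 1.5), the same direction as Ly6a. In KO against WT cells at day 14, 16 were higher and 6 lower (median 0.51), and Ly6a was higher. In WT cells from day 4 to day 14, 21 rose and 2 fell (median 1.67), and Ly6a rose. The summed level of the list averaged 657.1 CPM in WT and 359.3 CPM in KO cells at day 4, and 1438, 3638 and 1668 CPM in WT, HET and KO cells at day 14. Among the means of the day 14 groups, the sum and Ly6a had the same falling order of HET, KO and WT. At day 4 KO cells had a smaller sum and more Ly6a than WT cells. In KO cells Ly6a was higher at day 4, when the sum was lower. The part of interferon in the Ly6a levels was not tested. Haematopoietic cells also carry Ly6a and Cd44: of 10 haematopoietic genes, 1 or 2 reached 1 CPM in a group, most of the summed level was Cd14 (29.0 to 145.7 CPM), and Ptprc was at 0 in both day 4 groups and averaged at most 0.264 CPM.

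Thy1 RNA, a defining marker of many fibroblast preparations, was at or near 0. Its counts summed over the 3 libraries of a group were 0 in WT and 16 in KO cells at day 4, and 1, 9 and 2 in WT, HET and KO cells at day 14. A count of 0 in WT day 4 allows up to 0.0283 CPM, a limit that covers counting error only. Thy1 (chr9:44043384-44048579) was therefore below the filter and entered no test; with no filter beyond 1 count it was called for KO against WT at day 4 (edgeR adjusted p = 0.00246). Of the 10 genes, the other 9 were measured well above that level in at least 1 group.

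Cd44 had the narrowest range, with group means 1.89-fold apart at most. Cd44 (chr2:102811141-102901665) stood at 146.4, 141.3 and 141.1 CPM in WT and 105.9, 105.6 and 107.2 CPM in KO cells at day 4. At day 14 it stood at 199.3, 186.3 and 174.7 CPM in WT, 202.2, 195.9 and 202.9 CPM in HET and 202.8, 199.7 and 200.2 CPM in KO cells, with all 3 genotypes within a narrow band. KO was below WT at day 4 (log2 -0.43 ± 0.05, edgeR adjusted p = 9.8e-07). At day 14 the difference of 0.11 ± 0.05 missed the threshold (edgeR adjusted p = 0.0718) and passed it in DESeq2 (adjusted p = 0.024), with RLE scaling (edgeR adjusted p = 0.0488) and without WT day 14 replicate 1 (edgeR adjusted p = 0.0119). Cd44 rose between the days in both genotypes, by 0.39 ± 0.05 in WT and 0.92 ± 0.05 in KO cells on the log2 scale (edgeR adjusted p = 2.7e-06 and 1.84e-10).

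Hyaluronan genes and CD44 partners changed in both directions. Of 12 tested, 2 were higher and 7 lower in KO than in WT cells at day 4 (median log2 fold change -0.3), and 3 were higher and 4 lower at day 14 (median -0.34). Cemip, which is needed for hyaluronan breakdown, averaged 133.4 ± 1.07 CPM in WT and 1.03 ± 0.213 CPM in KO cells at day 4 (log2 -7 ± 0.19, edgeR adjusted p = 7.26e-15), and 7.17, 0.551 and 0.240 CPM in WT, HET and KO cells at day 14. Has2, a hyaluronan synthase, averaged 45.1 CPM in WT and 11.5 CPM in KO cells at day 4 and 2.61 and 0.771 CPM at day 14 (log2 -1.97 and -1.74, edgeR adjusted p = 4.77e-12 and 1.44e-07). Has2 and Cemip were therefore both lower in KO cells on both days. Msn and Vcan were among the genes higher in KO cells at day 14. Msn averaged 843.0 CPM in KO and 335.6 CPM in WT cells, and Vcan 251.1 and 137.6 CPM. At day 4 Vcan averaged 631.1 CPM in KO and 2488 CPM in WT cells.

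Nt5e (chr9:88327197-88372092) was low in every group. WT cells held 5.17, 5.14 and 5.52 CPM and KO cells 6.73, 5.92 and 6.93 CPM at day 4. At day 14 WT cells held 4.29, 3.94 and 3.74 CPM, HET cells 0.479, 2.63 and 1.40 CPM and KO cells 7.53, 6.49 and 7.16 CPM. The HET libraries spread widely, on 10 to 50 counts each, and lay below all others. KO was above WT at day 14 (log2 0.82 ± 0.25, edgeR adjusted p = 0.00984), while at day 4 the difference of 0.31 ± 0.23 was not called (edgeR adjusted p = 0.244), though it was called when only these groups were fitted (edgeR adjusted p = 0.0186). HET was below WT by -1.43 ± 0.32 (edgeR adjusted p = 0.000926), and by -2.07 without HET replicate 2. Of 12 tested genes of extracellular ATP and adenosine handling, 4 were higher and 7 lower in KO cells at day 4, and 3 higher and 5 lower at day 14. Adora2a, an adenosine receptor, averaged 8.65 ± 1.29 CPM in WT, 1.07 ± 0.265 CPM in HET and 0.343 ± 0.167 CPM in KO cells at day 14 (KO over WT -4.65 ± 0.38, edgeR adjusted p = 1.7e-09). Enpp1, an ectoenzyme that makes AMP and pyrophosphate from ATP, was highest in HET cells at 72.7 CPM, against 12.2 CPM in WT and 22.1 CPM in KO cells.

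S100a4 was raised in KO cells, mainly at day 4. S100a4 (chr3:90603771-90606045) stood at 1.49, 1.56 and 1.52 CPM in WT and 15.94, 15.83 and 15.02 CPM in KO cells at day 4, and at 1.07, 1.72 and 1.68 CPM in WT, 2.64, 3.58 and 2.30 CPM in HET and 3.76, 3.89 and 3.40 CPM in KO cells at day 14. The KO libraries were above the WT libraries on both days, and the HET and KO libraries overlapped at day 14. The log2 fold change of KO over WT was 3.35 ± 0.16 (edgeR adjusted p = 1.97e-11) at day 4 and 1.30 ± 0.19 (edgeR adjusted p = 1.94e-05) at day 14. The difference of KO from HET, 0.38 ± 0.17 (edgeR adjusted p = 0.0645), was called without HET replicate 2 (0.57, edgeR adjusted p = 0.0103). Other S100 genes were mostly higher in KO cells at day 4 too, with 8 higher and 1 lower of 10 tested (median log2 fold change 2.13). At day 14, 4 were higher and 0 lower (median 0.21). Of all genes, 35.7% were called higher and 33.8% lower at day 4, and 30.9% and 32.2% at day 14. In HET against WT cells 1 of the 10 was higher and 3 were lower (median -0.48), while S100a4 was higher. S100a6, a neighbour in the same gene cluster, averaged 220.8 CPM in WT and 978.9 CPM in KO cells at day 4 (log2 2.15 ± 0.15, edgeR adjusted p = 5.31e-09). S100a8 was the gene that was lower at day 4 and was among those higher at day 14, with log2 fold changes of -3.67 ± 0.23 at day 4 and 3.94 ± 0.19 at day 14 (edgeR adjusted p = 1.54e-10 and 3.2e-11). S100a4 shares 302 of its 584 exon bases with the predicted gene Gm42674 on the same strand, which had 0 counts in all libraries. How the counting treated reads from that stretch is not given, so the levels of S100a4 could be too low.

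Prrx1 was lower in KO cells on both days and fell with time in both genotypes. Prrx1 (chr1:163245119-163313710) stood at 267.2, 271.7 and 270.9 CPM in WT and 69.3, 69.7 and 74.7 CPM in KO cells at day 4, and at 89.4, 81.6 and 79.8 CPM in WT, 106.0, 83.3 and 108.4 CPM in HET and 19.8, 20.2 and 17.9 CPM in KO cells at day 14. The log2 fold change of KO over WT was -1.92 ± 0.08 (edgeR adjusted p = 8.71e-12) at day 4 and -2.12 ± 0.09 (edgeR adjusted p = 1.73e-11) at day 14. The fall between days was 1.69 ± 0.08 in WT and 1.89 ± 0.09 in KO cells on the log2 scale, and the difference of these falls, -0.20 ± 0.12, was not called (edgeR adjusted p = 0.167). HET cells were called above WT by 0.25 ± 0.08 (edgeR adjusted p = 0.0181), but the libraries overlapped, and the call was lost without WT day 14 replicate 2 or 3 or HET replicate 1 or 3 (edgeR adjusted p = 0.057, 0.0651, 0.0742 and 0.0934). Its paralog Prrx2 was also lower in KO cells, at 27.8 CPM in WT and 11.1 CPM in KO cells at day 4 and 41.4, 10.1 and 4.89 CPM in WT, HET and KO cells at day 14.

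Twist1 had one of the narrowest ranges, with 1.98-fold between the highest and lowest group means. Twist1 (chr12:33957671-33959829) stood at 38.6, 42.3 and 38.1 CPM in WT and 24.2, 21.8 and 24.3 CPM in KO cells at day 4, and at 32.0, 33.0 and 38.0 CPM in WT, 18.9, 22.9 and 18.3 CPM in HET and 37.7, 38.7 and 38.9 CPM in KO cells at day 14. KO cells were below WT at day 4 (log2 -0.76 ± 0.09, edgeR adjusted p = 1.06e-06). At day 14 the difference was 0.16 ± 0.09 (edgeR adjusted p = 0.12), which was called without WT day 14 replicate 3 (edgeR adjusted p = 0.039), and HET was below WT (-0.78 ± 0.09, edgeR adjusted p = 2.47e-06). The paralog Twist2 was lower in KO cells on both days, by -1.17 ± 0.15 and -1.77 ± 0.18 (edgeR adjusted p = 3.59e-06 and 4.78e-07). Of 15 tested mesenchymal transcription factor genes, 4 were higher and 8 lower in KO cells at day 4 (median log2 fold change -0.32), and 5 higher and 8 lower at day 14 (median -0.5). Osr1 fell by 2.62 in KO and 2.63 in HET cells on the log2 scale at day 14, whereas Zeb1 rose by 1.53 and 2.05 (edgeR adjusted p of 3.22e-11, 4.62e-11, 1.07e-08 and 3.53e-10 in that order).

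**Figure D3:**
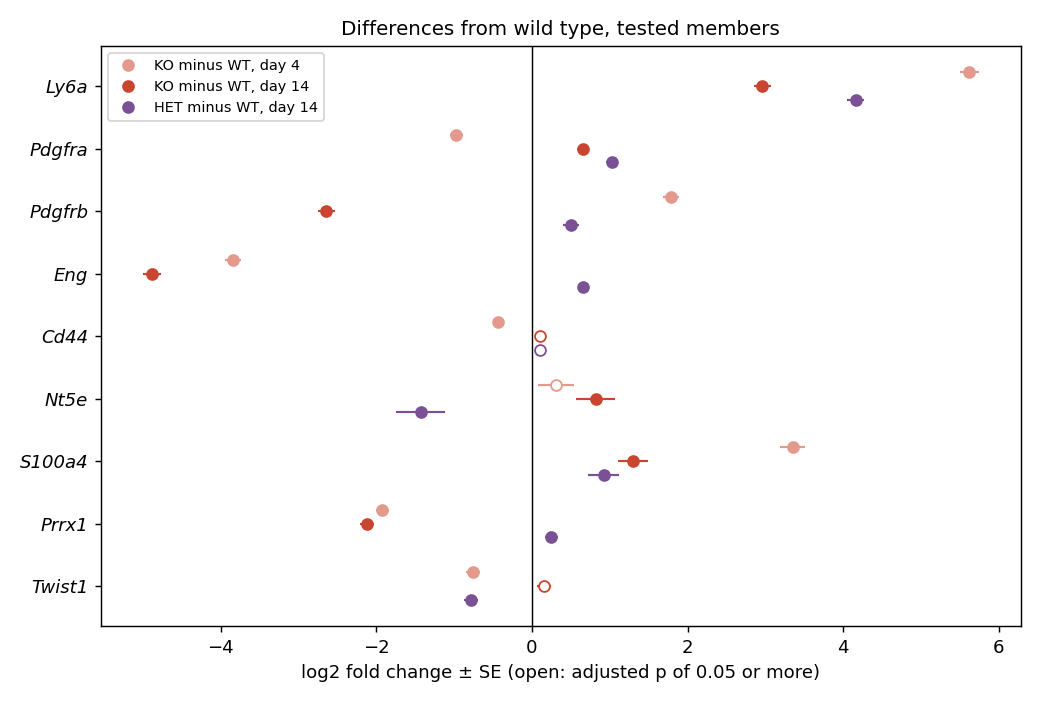
Log2 fold change of the 9 tested genes for KO over WT at days 4 and 14 and HET over WT at day 14, with lines of 1 SE; open circles missed the threshold. Pdgfrb lies at 1.79 for KO over WT at day 4 and at -2.64 at day 14, and Eng lies below -3.8 in both.

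HET cells did not lie between WT and KO cells for most of these genes. At day 14, 6 of 9 were higher and 2 lower in HET than in WT cells, beside 58.3% of all genes called (28.3% higher, 29.9% lower). KO differed from HET in 7 of 9, with Nt5e and Twist1 higher and Ly6a, Pdgfra, Pdgfrb, Eng and Prrx1 lower, beside 59.5% of all genes (29.4% higher, 30.1% lower). HET was called outside both other genotypes on the same side in 7 of 9: above in Ly6a, Pdgfra, Pdgfrb, Eng and Prrx1 and below in Nt5e and Twist1. The same held for 30.6% of all genes, 15.1% above and 15.5% below. These calls share the HET libraries, so they are not separate observations, and that of Prrx1 was among those lost in single omissions. Without HET replicate 2 the 18 log2 fold changes that involve HET moved by at most 0.635, for Nt5e.

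With time, WT cells showed calls in 7 of 9 genes, 4 higher and 3 lower at day 14, beside 74.6% of all genes (39.7% higher, 34.9% lower). KO cells showed calls in 7 of 9, with 3 higher and 4 lower, beside 60.9% (30.8% higher, 30.1% lower). The median absolute log2 fold change between days was 0.4 for the 9 genes and 0.71 for all genes in WT cells. In KO cells it was 0.92 and 0.44. The change with time differed between KO and WT in 7 of 9, with Pdgfra, Cd44 and Twist1 more positive in KO and Ly6a, Pdgfrb, Eng and S100a4 more negative, beside 64.7% of all genes (30.7% and 34.0%). Of the other members tested, Prrx1 fell in both genotypes and Nt5e was called in neither. The Nt5e difference in WT cells was called with no filter beyond 1 count (-0.47, edgeR adjusted p = 0.0241) and with only the groups compared (-0.43, edgeR adjusted p = 0.0133).

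Levels were compared between genes on the FPKM scale, which divides by merged exon length and is therefore low where a gene has long, little used exons, as Prrx1 (11066 bases) and Pdgfra (10024 bases) may. In WT cells at day 4 the order was Prrx1 (24.4 FPKM), Twist1 (24.4), Cd44 (21.1), Eng (10.8), Pdgfrb (9.35), Ly6a (6.001), Pdgfra (5.03), S100a4 (2.60) and Nt5e (0.613), and the replicates of the first pair overlapped. In KO cells at day 4 Ly6a led at 292.4 FPKM, followed by Pdgfrb at 32.4 and S100a4 at 26.7 FPKM, and Nt5e (0.759 FPKM) and Eng (0.752 FPKM), whose libraries overlapped, were the lowest of the tested genes. At day 14 Cd44 led in WT cells at 27.6 FPKM, where the first 5 genes overlapped with their neighbours, and Ly6a led in HET and KO cells at 428.5 and 186.6 FPKM. Eng had rank 4 of the 9 in WT, rank 2 in HET and rank 9 in KO cells.

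**Figure D4:**
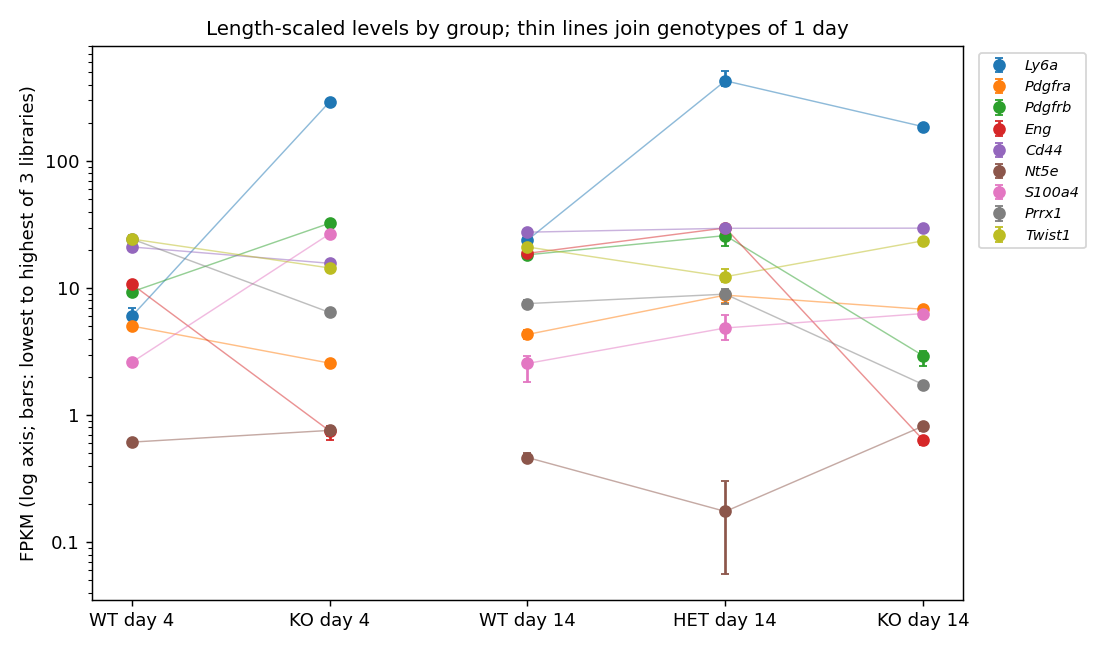
Mean level of each tested gene in FPKM on a log axis in the 5 groups, with bars from the lowest to the highest of 3 libraries and thin lines joining the genotypes of a day. Ly6a lies above all other members in HET and in both KO groups, and Nt5e and Eng are the lowest in KO cells.

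Across the 15 libraries, the gene most like each member in log2(CPM + 1) was Serpinb6b for Ly6a (Pearson r = 0.992), Clic5 for Pdgfra (0.980), Gdf11 for Pdgfrb (0.969), H2-Q5 for Eng (0.995), Gbp7 for Cd44 (0.993), Idi1 for Nt5e (0.947), Dstn for S100a4 (0.982), Ptcd1 for Prrx1 (0.984) and Ppp5c for Twist1 (0.980). The 15 points form 5 groups, so these values describe how group levels line up and carry no test. Dstn, which encodes the actin-depolymerising factor destrin, averaged 174.6 and 163.0 CPM in WT, 754.4 and 234.1 CPM in KO cells at days 4 and 14 and 188.0 CPM in HET cells. Msx1, a homeobox gene of mesenchyme and the second nearest to Eng (0.988), averaged 6.54 and 23.4 CPM in WT, 26.0 CPM in HET and at most 0.0293 CPM in KO cells. Among the members themselves the highest correlation was between Pdgfra and Cd44 (0.86), and the lowest were Eng with Nt5e and Pdgfrb with Twist1 (both -0.76).

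Other fibroblast genes changed in both directions, like the members. Of 18 tested, 9 were higher and 7 lower in KO than in WT cells at day 4 (median log2 fold change 0.12), 6 higher and 9 lower at day 14 (median -0.34), and 10 higher and 4 lower in HET than in WT cells (median 0.36). Dcn, encoding the matrix proteoglycan decorin, averaged 526.7 ± 7.003 CPM in WT and 22.02 ± 1.04 CPM in KO cells at day 4 and 502.5 ± 12.8, 662.1 ± 59.4 and 42.5 ± 2.63 CPM in WT, HET and KO cells at day 14, the same order of genotypes as Eng. Vim, encoding the intermediate filament vimentin, was higher in KO cells, at 622.2 against 396.1 CPM at day 4 and 1507 against 679.7 CPM at day 14 (log2 0.65 ± 0.06 and 1.15 ± 0.06, edgeR adjusted p = 1.99e-07 and 5.21e-10). Cd34, a surface antigen of stromal progenitors, averaged 20.1 CPM in HET cells, 2.66 CPM in WT and 0.271 CPM in KO cells at day 14. Postn, Lum, Fap, Mfap5 and Clec3b did not pass the filter on low counts.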

How the data were processed

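The authors deposited 1 file of raw counts for each of 15 libraries. Per the labels' protocols, libraries were made with the TruSeq RNA Library Prep Kit v2, which does not mark strand. Per the submitters' processing notes, TopHat2 2.1.0, HTSeq, DESeq2 and GRCm38.p4 were used. Which annotation and strand setting the counting used, and which HTSeq and DESeq2 releases, is not given in the sources used here, so reads of overlapping genes on opposite strands cannot be told apart. The GENCODE M21 annotation of the reference chromosomes (GRCm38) gave symbols, coordinates and exon lengths to 46005 of 46603 IDs, and the other 598 held 0.0762% of counts.

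Counts were tested with edgeR 4.0.16 (R 4.3.3; quasi-likelihood F test, robust dispersion) on all 15 libraries after filterByExpr and TMM scaling. P-values were adjusted by Benjamini-Hochberg over 15296 genes in each of 7 comparisons, with a threshold of 0.05. CPM used TMM-scaled library sizes, and FPKM is CPM per kilobase of merged exons. An SE is the Wald SE, with library variance not below counting error. The fit was tested on simulated data. Alternatives were DESeq2 1.42.0, RLE scaling, other filters, only the groups compared, a replicate block and leaving out each library.

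The members and gene lists were chosen with earlier results of these data known. The text names all members, Actb, up to 2 genes per list that rose and 2 that fell with the smallest adjusted p in KO or HET against WT at day 14, ligands, partners and paralogs of members, and the genes most correlated with each. Cd34, S100a6, and the marker genes of other cell types were named after their values were seen.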

Additional observations from a re-analysis of the deposited data

Results flagged for a closer look

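For 7 of the 9 tested genes the difference between KO and WT changed from day 4 to day 14 by the edgeR interaction term of genotype and day (adjusted p under 0.05, as for 64.7% of all genes). As log2 fold change at day 14 minus that at day 4, the value was -4.43 for Pdgfrb, -2.66 for Ly6a, -2.05 for S100a4 and -1.05 for Eng, and 1.63 for Pdgfra, 0.92 for Twist1 and 0.53 for Cd44. Only Pdgfra and Pdgfrb among these had called differences of opposite sign on the 2 days. No cause was tested.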

How the results depend on the processing

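No count of genes or members called moved by more than 1.5 times in any alternative run. The replicate numbers did not pair the samples: over 30 pairs of same-numbered libraries, the correlation of deviations from group means had a median of -0.01 and exceeded 0.1 in 3. It was far from 0 between WT day 14 and HET day 14 libraries, at 0.752, 0.303 and -0.697 for replicates 1, 2 and 3. With the replicate block, 9551 genes and 7 members were called for KO against WT at day 14, and all 63 member results kept their direction and call. Cd44 in KO against HET, 0.00 as reported, was -0.0021 with the filter of 1 CPM in 3 samples, -0.0033 with only the groups compared, and -0.0138 to 0.0146 when single libraries were left out. S100a4 in WT cells, day 14 against day 4, was -0.03 as reported and -0.1435 to 0.1574 when single libraries were left out, the highest without WT day 14 replicate 1. Twist1 in WT cells lost its call between days without WT day 4 replicate 2 (edgeR adjusted p = 0.149) and without WT day 14 replicate 1 or 2 (0.137 and 0.119). Other calls were gained when 1 library was left out: Eng between days in KO cells without KO day 4 replicate 1 (0.0329), and Cd44 in HET against WT without WT day 14 replicate 1 (0.0161) or HET replicate 2 (0.0306), and in DESeq2 (0.0336). With only the groups compared, Prrx1 in HET against WT lost its call (edgeR adjusted p = 0.103), and the interaction terms of Nt5e (0.0147) and Prrx1 (0.023) gained one. The cause of these changes was not tested. Low counts limit Thy1 (0 to 16 per group), Nt5e in HET cells (91) and S100a4 in WT cells at day 14 (96).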

Other observations

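Of 11 tested genes of other stromal surface antigens and signals, 4 were higher and 5 lower in KO than in WT cells at day 4 (median log2 fold change -0.2), and 6 higher and 5 lower at day 14 (median 0.16). Cxcl12, the chemokine that retains haematopoietic cells in marrow, averaged 24.7 CPM in WT and 92.7 CPM in KO cells at day 4, and 152.5, 121.1 and 31.6 CPM in WT, HET and KO cells at day 14. Mcam (CD146), an adhesion molecule of perivascular stromal cells, was higher in KO cells at day 4 (log2 2.37 ± 0.08, edgeR adjusted p = 6.99e-13) and lower at day 14 (-1.75 ± 0.11, edgeR adjusted p = 4.56e-10). Cd248 (endosialin), another perivascular stromal marker, did likewise, with log2 fold changes of 3.03 ± 0.23 and -3.45 ± 0.22 (edgeR adjusted p = 2.68e-09 and 8.4e-10). Among other perivascular and smooth muscle genes, Notch3 averaged 21.5 CPM in WT and 178.8 CPM in KO cells at day 4, and 39.6 and 35.4 CPM at day 14. Cspg4, Acta2, Tagln and Rgs5 did not follow the pattern of Mcam and Cd248. Cspg4 averaged 2.98 CPM in WT and 0.263 CPM in KO cells at day 4, and 9.57 and 0.0730 CPM at day 14. Acta2 was higher in KO cells at day 14 too, at 488.6 against 25.9 CPM, as was Tagln, at 18.2 against 3.42 CPM, and Rgs5 averaged at most 0.968 CPM in any group. Notch3, Cspg4, Acta2, Tagln and Rgs5 were singled out after their values were seen.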
